A study of Mus musculus with 32 samples.

Results

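The genes of respiratory complexes II to V were compared between *Gpr146* knockout (KO) and wild-type (WT) mice in liver and in 3 adipose depots: epididymal white fat (eWAT), inguinal white fat (iWAT) and brown fat (BAT). Members were chosen by name: every gene symbol that starts with Sdh followed by a, b, c or d, with Uqcr, with Cox and the digit of subunits 4 to 8, or with Atp5, and Cyc1. The rule found 49 of the 24646 genes of each table. Of these, 46 encode subunits or subunit isoforms: 4 of complex II, 9 of complex III, 18 of complex IV and 15 of complex V. The other 3, Cox4nb, Atp5s and Atp5sl, match by name but are not subunits, and they count only where 49 genes are counted. No gene was removed for a low value, so all 49 were tested in each tissue. The arrays measured RNA, not the protein complexes or their activity.

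All animals were male C57BL/6J mice, at an age of 20 weeks, had eaten a high-fat diet (HFD) for 3 months, and had no food in the night before the tissues were taken. The KO mice lacked *Gpr146*, an orphan G-protein-coupled receptor, in the whole body, and the WT mice were littermates, so a change in one tissue cannot be tied to loss of the receptor in that tissue. Each genotype had 4 mice, and every tissue of a mouse was hybridised to its own array, 32 arrays in all. Mouse numbers are those of the labels, and the same number within a genotype was taken as the same animal in each tissue. The titles of the 4 liver KO arrays begin with Liver_KO but go on to name a WT mouse. Their genotype, description and source name all say KO, and they were used as KO. *Gpr146* itself was lower in all 4 KO than in all 4 WT mice in each tissue, with a log2 change (KO minus WT) of -1.77 in liver (limma adjusted p = 6.55e-06), -1.53 in eWAT (adjusted p = 0.00823), -1.55 in iWAT (adjusted p = 0.221) and -1.16 in BAT (adjusted p = 0.0727). Marker genes followed the tissue labels: the mean of 8 hepatocyte genes was 8.96 to 9.43 in liver and 2.28 to 3.45 in the fat depots, and the brown fat uncoupling protein Ucp1 had a WT mean of 11.47 in BAT. All levels are log2 units as deposited, and since each tissue table was normalized separately, levels are set side by side between tissues only as a description.

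Complexes II to IV pass electrons from succinate and reduced quinone to oxygen. Succinate dehydrogenase (complex II) links the tricarboxylic acid cycle to the quinone pool, the cytochrome bc1 complex (complex III) hands electrons to cytochrome c, cytochrome c oxidase (complex IV) reduces oxygen, and ATP synthase (complex V) uses the proton gradient built by complexes III and IV and by complex I. All subunits of complex II, and most of the others, are encoded in the nucleus, while the catalytic core of complex IV and parts of complexes III and V come from mitochondrial DNA. Brown adipose tissue is rich in mitochondria and, like heart and skeletal muscle, uses the complex IV isoforms Cox7a1 and Cox8b beside the common Cox7a2 and Cox8a.

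In eWAT 8 of the 49 genes rose in KO mice and none fell (limma adjusted p under 0.05). That is 16.3% of them, while 4.57% of all genes in eWAT passed the threshold with a higher and 10.7% with a lower level in KO mice. The 8 genes were Sdha of complex II, Uqcr11 and Uqcrq of complex III, Cox4i1 and Cox4i2 of complex IV, and Atp5k, Atp5e and Atp5c1 of complex V. In iWAT, where no gene of the whole table passed (0% higher, 0% lower), none of the 49 was called. Even so, 22 of the 49 (44.9%) had an unadjusted p under 0.05 with a higher level in KO mice, against 7.09% of all genes, and 46 of 49 had a positive change. In BAT none was called (0.00406% of all genes higher, 0.0243% lower) and 8 of 49 (16.3%) had an unadjusted p under 0.05 with a higher level, against 5.25% of all genes. In liver none was called (0.162% higher, 0.499% lower) and 4 of 49 (8.16%) had an unadjusted p under 0.05 with a higher level, against 5.79%. In eWAT the same count was 15 of 49 (30.6%, against 12.4% of all genes).

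The median log2 change, KO minus WT, over the 49 genes was 0.28 in iWAT, 0.16 in eWAT, 0.06 in BAT and 0.05 in liver, and over all genes it was 0.017, 0.031, 0.003 and 0.010. All 4 KO mice were above all 4 WT mice for 14 of 49 genes in iWAT (28.6%, against 4.29% of all genes), 13 in eWAT (26.5%, against 8.63%), 9 in BAT (18.4%, against 3.31%) and 3 in liver (6.12%, against 3.62%). These shares describe the list; genes of one pathway in the same arrays are not independent of each other, and the list was not tested as a set.

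**Figure D1:**
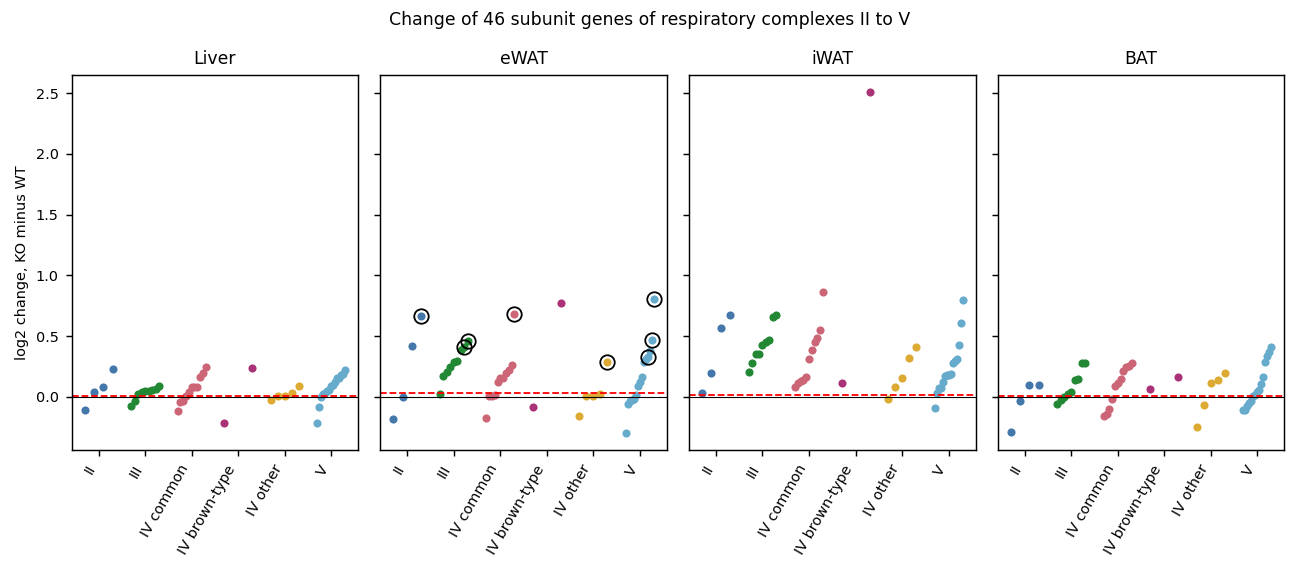
Log2 change (KO minus WT) of each of the 46 subunit genes, by complex and tissue, with black rings on the genes called by limma and a dashed line at the median of all genes of the tissue. Rings appear in eWAT alone, 8 in all, and the iWAT points lie above 0 for 44 of 46 genes, with Cox8b at 2.51.

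In complex II 1 of the 4 subunits passed in eWAT. Sdha, the flavoprotein that oxidizes succinate, measured 8.56, 8.45, 8.54 and 8.28 in eWAT of WT mice 1 to 4 and 9.22, 8.82, 9.04 and 9.41 in KO mice 1 to 4. The groups do not overlap, and KO mouse 2 is the lowest of the KO mice. The mean rose from 8.46 ± 0.13 to 9.13 ± 0.25 (SD, n = 4), a log2 change of 0.67 (SE 0.13, adjusted p = 0.0125) or 1.59-fold. Sdhb, the iron-sulfur subunit, measured 6.95, 6.82, 6.77 and 6.45 in WT and 7.26, 6.95, 7.02 and 7.43 in KO eWAT; KO mouse 2 lies only just above WT mouse 1, and the change of 0.42 did not pass (adjusted p = 0.0696). The membrane anchors Sdhc and Sdhd had changes of -0.18 and -0.00 in eWAT. In iWAT none of the 4 passed. Sdhb changed by 0.67 and Sdha by 0.57 (adjusted p = 0.221 for each), with all KO above all WT mice, while Sdhc changed by 0.03 and Sdhd by 0.20.

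In complex III 2 of the 9 genes passed in eWAT and none in iWAT. In eWAT 9 of its 9 genes had a positive change, from 0.02 for Uqcrb to 0.46 for Uqcr11, and Uqcr11 and Uqcrq, small accessory subunits, were the 2 that passed. Uqcr11 measured 5.27, 5.06, 5.13 and 5.36 in WT and 5.75, 5.42, 5.75 and 5.75 in KO eWAT. The 3 highest KO values are nearly equal and KO mouse 2 lies just above the highest WT mouse. The change was 0.46 (SE 0.11, adjusted p = 0.0200), or 1.37-fold. Uqcrq changed by 0.41 (adjusted p = 0.0489), with WT mice at 3.54 to 3.96 and KO mice at 3.97 to 4.36. Uqcrc1 (0.38) and Uqcrc2 (0.25), the core proteins, Cyc1 (0.29), which carries the haem of cytochrome c1, and Uqcrfs1 (0.17), the Rieske iron-sulfur protein, did not pass. In iWAT 8 of the 9 genes had an unadjusted p under 0.05, with changes of 0.20 to 0.67; the exception was Uqcrb, with a change of 0.28 (limma adjusted p = 0.358). Uqcr11 had the largest change, 0.67, and Uqcrh the smallest p, with a change of 0.43 from 6.13 to 6.28 in WT to 6.36 to 6.82 in KO mice. The mean over the 9 genes, set to 0 at the WT mean, was -0.05, -0.04, 0.05 and 0.04 in WT iWAT and 0.60, 0.11, 0.50 and 0.51 in KO iWAT; in eWAT it was 0.06, 0.03, 0.04 and -0.13 in WT and 0.33, 0.18, 0.07 and 0.51 in KO mice. The KO mice were above all WT mice in both depots, by a narrow margin in KO mouse 2 of iWAT and KO mouse 3 of eWAT.

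In complex IV 2 of the 18 genes passed in eWAT and none in iWAT, where 17 of 18 had a positive change and 7 an unadjusted p under 0.05. Cox4i1, the common form of the largest nuclear-encoded subunit, measured 8.13, 8.01, 8.06 and 7.76 in WT and 8.76, 8.46, 8.64 and 8.82 in KO eWAT, with no overlap and WT mouse 4 lowest. It rose by 0.68 (SE 0.11, adjusted p = 0.00937), or 1.60-fold. Cox4i2, the isoform best known from lung, rose by 0.28 (adjusted p = 0.0228), from 3.40 to 3.56 in WT to 3.75 to 3.80 in KO mice. The difference Cox4i2 minus Cox4i1 was lower in all 4 KO than in all 4 WT mice of eWAT, by -0.40 (two-sided exact permutation p = 0.0286, the smallest that 4 mice against 4 can give), so the log2 change of Cox4i1 was larger. Cox4i2 lies not far above the medians of all genes in the eWAT arrays, 3.13 to 3.18, so background could make its change appear too small. Of the 11 common genes of complex IV, 10 had a positive change in eWAT with a median of 0.15. In iWAT 11 of 11 were positive with a median of 0.31 and 5 had an unadjusted p under 0.05: Cox4i1 changed by 0.87, Cox7a2 by 0.49, Cox6b1 by 0.45, Cox6c by 0.39 and Cox5a by 0.31. Cox4i1 measured 7.65, 7.79, 8.20 and 7.89 in WT and 9.00, 8.31, 8.96 and 8.73 in KO iWAT (adjusted p = 0.221), with KO mouse 2 just above the highest WT mouse. The testis isoforms Cox6b2, Cox7b2 and Cox8c had changes of 0.01, 0.01 and 0.02 in eWAT and of 0.32, 0.08 and 0.16 in iWAT.

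Complex V had the gene with the smallest p of the 49 in both white depots. Atp5k encodes subunit e, a small membrane subunit that helps ATP synthase form dimers. In eWAT it measured 6.35, 6.30, 6.47 and 6.14 in WT and 7.11, 6.98, 7.05 and 7.35 in KO mice, groups far apart relative to their spread. The mean rose from 6.32 ± 0.14 to 7.12 ± 0.16 (SD, n = 4), a change of 0.81 (SE 0.10, adjusted p = 0.0072) or 1.75-fold. Atp5e, the epsilon subunit of the rotor stalk, measured 5.26, 5.05, 5.09 and 4.94 in WT and 5.53, 5.57, 5.55 and 5.57 in KO eWAT. Its KO values sit closer together than its WT values, and it rose by 0.47 (SE 0.08, adjusted p = 0.0103). Atp5c1, the gamma subunit of the same stalk, rose by 0.33 (adjusted p = 0.0229). The catalytic beta subunit Atp5b (0.31) and its partner Atp5a1 (0.29) did not pass, and neither did the c-ring genes Atp5g1 (0.01), Atp5g2 (-0.06) and Atp5g3 (0.37) nor Atp5d (-0.30), the delta subunit of the stalk. In iWAT 14 of the 15 genes had a positive change, and 5 had an unadjusted p under 0.05: Atp5k (0.80), Atp5e (0.61), Atp5b (0.42), Atp5a1 (0.31) and Atp5l (0.29).

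**Figure D2:**
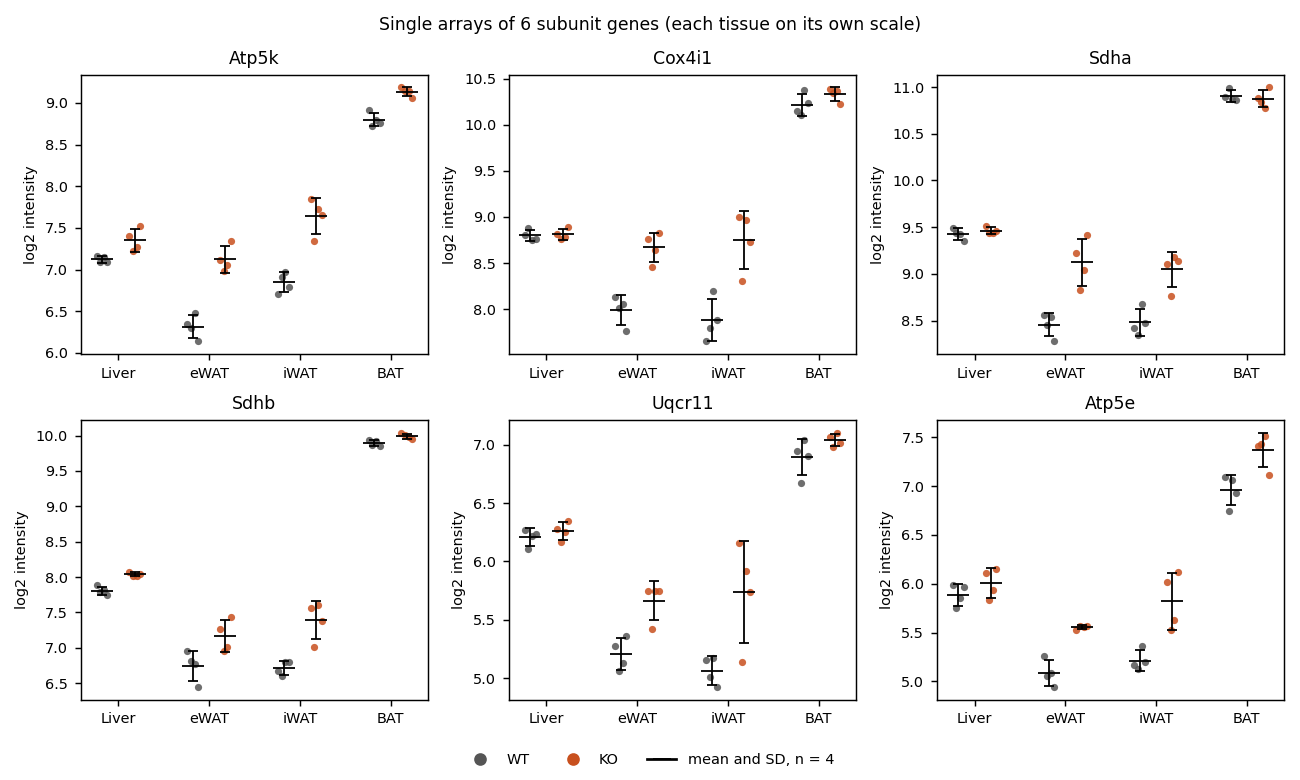
Log2 expression of Atp5k, Cox4i1, Sdha, Sdhb, Uqcr11 and Atp5e in each of the 32 arrays, with the mean and SD of 4 mice per genotype; tissues were normalized separately. In eWAT the KO and WT points of each of the 6 genes do not overlap; in liver the same holds for Atp5k and Sdhb.

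The macrophage and adipocyte markers of eWAT moved with genotype as well. Of 13 macrophage genes 12 were lower in KO mice by the same test. Their mean was 8.27 to 8.54 in WT mice, and 5.73, 8.01, 6.62 and 5.99 in KO mice 1 to 4. Of 10 adipocyte genes 9 were higher and 1 was lower, with a mean of 8.80 to 9.18 in WT and 9.47 to 9.79 in KO mice, and 2 of 5 mesothelial genes were lower. In bulk tissue fewer cells of a type and less RNA per cell cannot be told apart. With the macrophage mean as a covariate no member was called, and that fit called 1 gene of the whole table. The median change of the 49 genes was then 0.0039 in place of 0.158, and 26 of them had a positive change in place of 38. The macrophage mean did not overlap between the genotypes, so this fit cannot part a genotype effect from one of macrophage content. Among the 8 called genes the change became 0.64 for Atp5k (adjusted p = 0.411), 0.49 for Atp5e, 0.42 for Cox4i1, 0.29 for Sdha, 0.27 for Cox4i2, 0.19 for Uqcr11, 0.16 for Atp5c1 and 0.14 for Uqcrq. The 46-gene mean, relative to the WT mean, was 0.23, 0.12, 0.01 and 0.37 in KO mice 1 to 4, and -0.09 to 0.06 in WT mice. KO mice 1 and 4, with the lowest macrophage means and the highest adipocyte means (9.79 and 9.72), had the highest values. KO mouse 2, with a macrophage mean close to the WT mice, was above all WT mice, and KO mouse 3 was within their range. KO mouse 4 was the highest KO mouse for 35 of the 46 genes. The part of cell makeup in the 8 calls was not tested beyond these values.

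The 8 calls of eWAT differ in how far they rest on single mice. Atp5k, Cox4i1, Sdha and Atp5e passed with any 1 of the 8 mice left out. Uqcr11 lost its call without WT mouse 2, WT mouse 3, KO mouse 1 or KO mouse 4 (adjusted p = 0.0545 to 0.0658). The calls of Atp5c1, Cox4i2 and Uqcrq were each lost in 5 or more of these fits, with adjusted p of 0.0525 to 0.134.

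**Figure D3:**
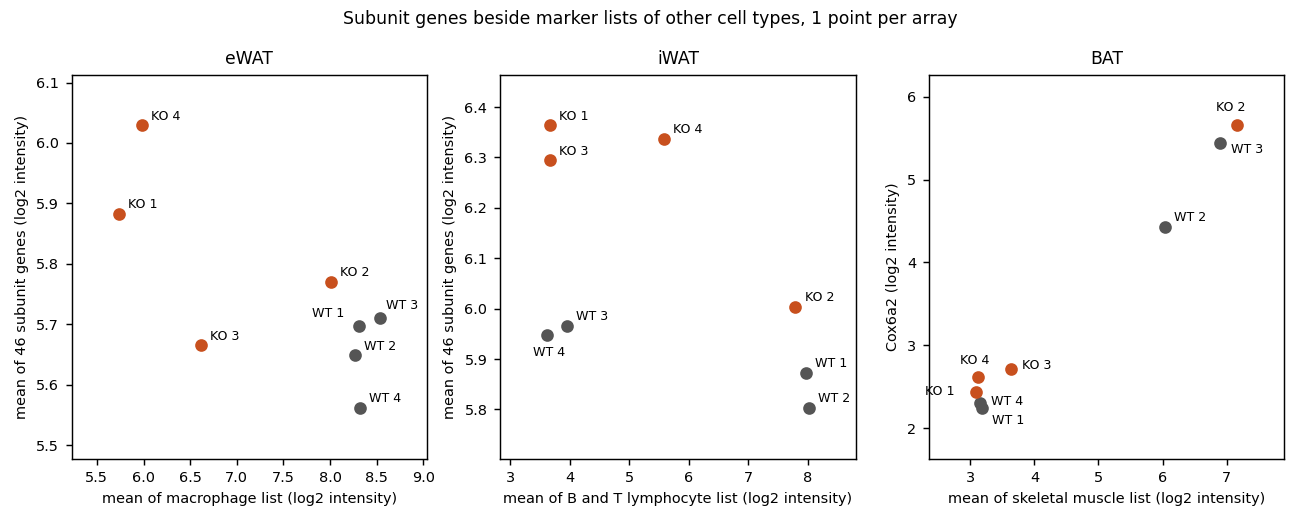
Per-mouse values of respiratory genes against marker means: the mean log2 level of 46 subunit genes against 13 macrophage genes in eWAT and against B and T lymphocyte genes in iWAT, and Cox6a2 against skeletal muscle genes in BAT. In iWAT WT mice 1 and 2 and KO mouse 2 have lymphocyte means of 7.79 to 8.02, and in BAT the 3 arrays with high muscle means also hold the 3 highest Cox6a2 values.

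In iWAT no member passed the adjusted threshold (adjusted p 0.221 for the smallest), although the median change was 0.28. The mean over the 46 genes, relative to the WT mean, was -0.02, -0.09, 0.07 and 0.05 in WT mice and 0.47, 0.11, 0.40 and 0.44 in KO mice. KO mouse 2 lies nearest to the WT mice and was the lowest KO mouse for 31 of the 46 genes. Its B and T lymphocyte mean was 7.79, close to WT mice 1 (7.97) and 2 (8.02), whereas the other arrays had means of 3.62 to 5.59. A lymph node lies within this depot, and the labels do not say whether it was removed. Without KO mouse 2, 7 members passed: Atp5k, Cox4i1, Cox8b, Cyc1, Sdha, Sdhb and Uqcr11, and 227 of the 24646 genes passed in that fit. That fit keeps the lymphocyte-rich WT mice 1 and 2 but no KO array as rich, so lymphocyte content and genotype are mixed in it. With the lymphocyte mean as a covariate 2 passed, Atp5k and Cox4i1 (35 of all genes), and with all 3 lymphocyte-rich arrays left out 1 passed, Cox8b (78 of all genes); both settings were chosen after seeing the data. All 13 macrophage genes had a lower mean in KO mice here too, none of them called, with means of 6.38 to 7.13 in WT and 5.35 to 6.51 in KO mice. With the macrophage mean as a covariate the median change of the 49 genes was 0.127 in place of 0.277. Of them 38 had a positive change, and 3 in place of 22 had an unadjusted p under 0.05 with a higher level. KO mice 1, 3 and 4 had macrophage means below all WT mice, so this fit cannot part genotype from macrophage content either.

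The brown-type isoforms were examined apart from the common ones, and Cox8b had the largest change of all members in any tissue. In iWAT it measured 5.34, 3.61, 5.30 and 4.64 in WT and 7.21, 6.28, 7.71 and 7.75 in KO mice. All KO mice lie above all WT mice, and the lowest values of each group are those of the mice numbered 2. The 3.61 of WT mouse 2 lies just below the medians of all genes in the iWAT arrays and may be background. The mean went from 4.72 ± 0.81 to 7.24 ± 0.68 (SD, n = 4), a change of 2.51 (SE 0.44) or 5.71-fold, with an unadjusted p of 0.000251 and an adjusted p of 0.221 in limma. Cox8a, the common form of the same subunit, had WT values of 9.43 to 9.71 and KO values of 9.57 to 9.84 in iWAT, a change of 0.16. The difference Cox8b minus Cox8a was therefore higher by 2.35 in KO mice, with no overlap (two-sided exact permutation p = 0.0286). Cox7a1, the other brown-type isoform, measured 3.44, 2.74, 3.20 and 3.17 in WT and 3.83, 2.57, 3.36 and 3.25 in KO iWAT, groups that overlap throughout, a change of 0.12 (adjusted p = 0.824). Most of these values lie below the medians of all genes in the iWAT arrays, 3.65 to 3.73, so they may be background. The common partner of Cox7a1, Cox7a2, changed by 0.49, and the difference Cox7a1 minus Cox7a2 was -0.37 (exact permutation p = 0.0857). Over 4 isoform pairs and 4 tissues, 16 such comparisons were made, and their p-values are unadjusted.

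Other genes of the brown and beige programme in iWAT did not all follow Cox8b. Cidea, a lipid droplet protein of brown fat, changed by 1.02 (adjusted p = 0.226) and the coactivator Ppargc1a by 0.61 (adjusted p = 0.268). Ucp1, which makes brown fat mitochondria produce heat, measured 4.90, 3.66, 4.80 and 3.67 in WT and 4.02, 3.10, 3.93 and 3.71 in KO mice, a change of -0.56 (adjusted p = 0.420). Of 9 such genes measured, 7 had a positive change in iWAT. Of them 4 had an unadjusted p under 0.05, against 7.09% of all genes higher in iWAT at that threshold. Skeletal muscle also uses Cox8b; the muscle mean was 3.45 to 3.67 in the KO arrays of iWAT and 3.35 to 4.67 in the WT arrays, where the highest value, in WT mouse 4, goes with a Cox8b value of 4.64. In eWAT Cox8b was high in 1 KO mouse only, KO mouse 4, at 5.41, while the other KO mice had 3.18 to 3.82 and the WT mice 2.78 to 3.53 (change 0.77, adjusted p = 0.252). The medians of all genes in the eWAT arrays were 3.13 to 3.18, so the lower of these values may be background. Cox7a1 changed by -0.09 there.

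The promoters of the brown-type pair are shown because both genes are known from brown fat. In iWAT the change was 2.51 for Cox8b and 0.12 for Cox7a1, whose level there may be background. Neither passed, and the 2 changes were not tested against each other. Each line gives the 250 bases before the annotated start from RefSeq, 5′ to 3′ on the gene's own strand, GRCm38.p6: Cox8b at chr7:140900447-140900696 on the minus strand, and Cox7a1 at chr7:30183921-30184170 on the plus strand. Neither holds any of the 4 motifs searched on both strands, which were the NRF1 core GCATGCGC, the ETS core CCGGAAG, the YY1 core AAGATGGC and the ERR half-site AAGGTCA, so both are wholly in lower case.
Cox8b: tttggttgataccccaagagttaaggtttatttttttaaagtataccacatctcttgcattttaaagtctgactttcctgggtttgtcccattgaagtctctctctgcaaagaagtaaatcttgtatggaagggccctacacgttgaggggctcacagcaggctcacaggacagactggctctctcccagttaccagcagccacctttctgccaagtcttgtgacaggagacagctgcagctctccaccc
Cox7a1: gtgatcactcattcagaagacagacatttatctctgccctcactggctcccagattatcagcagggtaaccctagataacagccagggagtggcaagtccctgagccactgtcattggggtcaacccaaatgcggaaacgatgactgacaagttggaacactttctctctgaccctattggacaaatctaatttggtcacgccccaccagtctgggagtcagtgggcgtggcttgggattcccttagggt

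**Figure D4:**
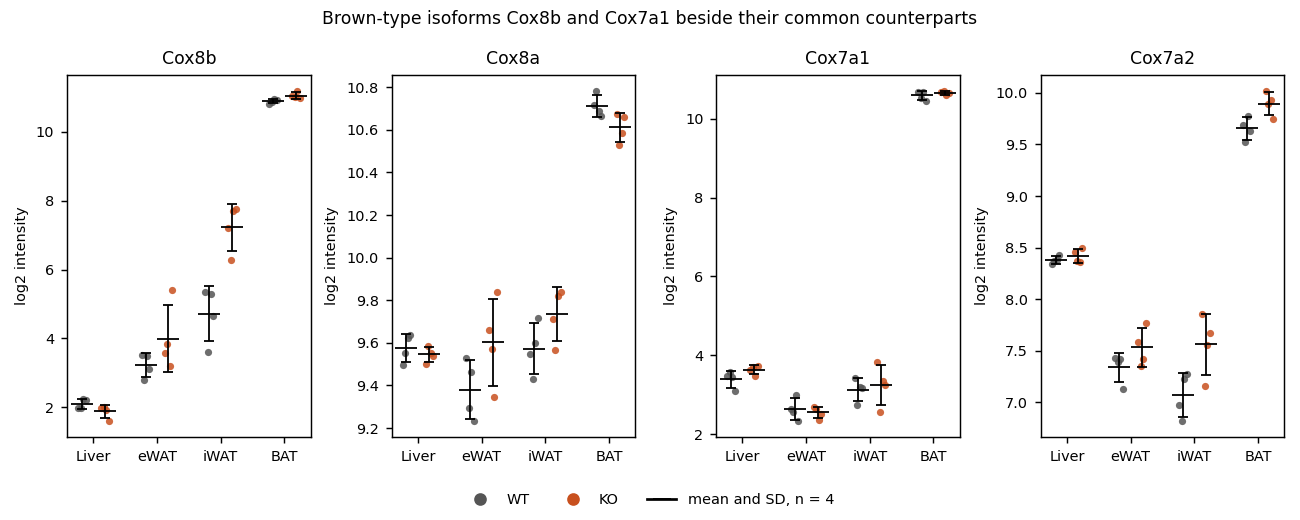
Log2 expression of the brown-type Cox8b and Cox7a1 and of their common partners Cox8a and Cox7a2 in each array, with mean and SD of 4 mice per genotype. Cox8b in iWAT is the panel in which KO mice (6.28 to 7.75) stand clear of WT mice (3.61 to 5.34). Cox7a1 overlaps in iWAT, where its level is low and may be background.

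In BAT, where the 46 genes had mean levels of 7.63 to 7.76 against 5.56 to 6.36 in the white depots, the changes were smaller and went both ways. The brown-type isoforms were already at 10.81 to 10.95 (Cox8b) and 10.46 to 10.69 (Cox7a1) in WT mice. Cox8b was 10.98 to 11.19 in KO mice, above all WT mice, a change of 0.16 (adjusted p = 0.450), and the difference Cox8b minus Cox8a was higher by 0.26 (exact permutation p = 0.0286). Cox7a1 changed by 0.06. Atp5k measured 8.91, 8.73, 8.79 and 8.76 in WT and 9.19, 9.14, 9.14 and 9.06 in KO mice, a change of 0.33 (adjusted p = 0.136) that was the most significant of the list here. Atp5e (0.41), the epsilon subunit, and Atp5o (0.37), which joins the head of ATP synthase to its stator, had the largest changes, with all KO above all WT mice. In complex III Uqcrq changed by 0.28 (adjusted p = 0.164), and in complex IV Cox5a by 0.21 and Cox7b by 0.28. Sdhc went the other way: it measured 9.45, 9.68, 9.36 and 9.34 in WT and 9.24, 9.12, 9.07 and 9.24 in KO BAT, a change of -0.29 with all KO below all WT mice (adjusted p = 0.246). The brown fat genes did not rise beside these, apart from 1 with a change of 0.45: 8 of 9 had a negative change, none called. Of them 5 had an unadjusted p under 0.05 with a lower level, as had 1833 of all 24646 genes in BAT. Among the 5 were Ppargc1a (-1.14, adjusted p = 0.130), Elovl3 (-1.13), Dio2 (-1.05) and Cidea (-0.31).

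The muscle isoform Cox6a2 in BAT followed the muscle genes of the same arrays. It measured 2.25, 4.43, 5.45 and 2.31 in WT and 2.44, 5.66, 2.71 and 2.62 in KO mice. The high arrays, WT mice 2 and 3 and KO mouse 2, had muscle means of 6.04, 6.90 and 7.17, and all others 3.09 to 3.64. The genotype difference of -0.25 (adjusted p = 0.935) became 0.31 without those 3 arrays.

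In liver the changes were small. Sdhb had the smallest p: it measured 7.89, 7.79, 7.81 and 7.75 in WT and 8.08, 8.02, 8.02 and 8.04 in KO mice, a change of 0.23 (SE 0.07, adjusted p = 0.163) with no overlap. Atp5k changed by 0.22 (adjusted p = 0.262), and in complex IV Cox7c by 0.19 and Cox7b by 0.24. Atp5d was lower in all KO mice, at 6.34 to 6.49 against 6.53 to 6.81 in WT mice (change -0.22, adjusted p = 0.299). Cyc1, with the smallest p of complex III, changed by 0.09. Cox8b changed by -0.22, Cox7a1 by 0.24, Cox8a by -0.03 and Cox7a2 by 0.04, and all of these were uncalled.

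Atp5k and Sdhb were the members for which all 4 KO mice lay above all 4 WT mice in every tissue. This held for 2 of 49 members (4.08%) and for 10 of all 24646 genes (0.0406%). By their labels the same mice gave all 4 tissues. In the 3 fat depots it held for Atp5k, Sdhb and Atp5e, and for 30 of all genes (0.122%). For Sdhb in BAT the margin was narrow, with WT mice at 9.85 to 9.94 and KO mice at 9.96 to 10.04, and the change of 0.10 was far from the threshold (adjusted p = 0.628). Their promoters are shown with the NRF1 core GCATGCGC in capitals; NRF1 is a transcription factor known for nuclear genes of the respiratory chain. The sequences are the 250 bases before the start from RefSeq, GRCm38.p6, 5′ to 3′ on the gene's strand: Atp5k at chr5:108434400-108434649 on the minus strand, and Sdhb at chr4:140961021-140961270 on the plus strand. In Atp5k 2 matches on opposite strands overlap, at 48 and 50 bases before the start, and in Sdhb the match is at 54 bases.
Atp5k: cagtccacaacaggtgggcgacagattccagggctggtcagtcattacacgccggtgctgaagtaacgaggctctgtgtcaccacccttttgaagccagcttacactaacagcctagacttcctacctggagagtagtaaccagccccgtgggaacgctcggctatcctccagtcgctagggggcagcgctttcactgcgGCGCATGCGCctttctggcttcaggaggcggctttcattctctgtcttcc
Sdhb: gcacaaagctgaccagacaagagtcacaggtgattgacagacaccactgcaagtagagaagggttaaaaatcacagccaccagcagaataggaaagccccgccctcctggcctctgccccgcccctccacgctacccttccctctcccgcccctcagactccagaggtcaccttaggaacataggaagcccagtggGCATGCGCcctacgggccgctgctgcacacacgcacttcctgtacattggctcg

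Promoters were at hand for 35 of the 46 subunit genes, 34 found by symbol and 1 by synonym. The NRF1 core was in 5 of the 35 (14.3%): Atp5g2, Atp5k, Atp5l, Cox6a1 and Sdhb. It was in 692 of 27025 genes with a promoter (2.56%). The ETS core CCGGAAG was in 9 (25.7%, against 7.83% of all), the YY1 core in 1 (2.86%, against 1.83%) and the ERR half-site in 2 (5.71%, against 4.7%). Of the other NRF1-core genes, listed in the order liver, eWAT, iWAT and BAT, Cox6a1 changed by -0.12, 0.01, 0.14 and -0.14, Atp5g2 by 0.02, -0.06, 0.18 and 0.01, and Atp5l by 0.05, 0.09, 0.29 and 0.17. A match of letters is not evidence of binding, and no binding was measured.

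Whether the changes differed between tissues was tested on the difference between 2 tissues of the same mouse, as numbered in the labels. Between eWAT and BAT 2 of 49 members passed, while 6.93% of all genes did: Sdha by 0.70 (SE 0.13, adjusted p = 0.0140) and Cox4i1 by 0.56 (SE 0.15, adjusted p = 0.0474), each with a larger change in eWAT. Between eWAT and liver 4 passed, while 8.37% of all genes did: Cox4i1 by 0.67 (adjusted p = 0.0105), Atp5k by 0.58 (adjusted p = 0.0114), Sdha by 0.63 (adjusted p = 0.0183) and Uqcr11 by 0.41 (adjusted p = 0.0475). At this adjusted threshold the shares of the members are near or below those of all genes, which count both directions. Of these, Atp5k and Cox4i1 between eWAT and liver passed with any 1 mouse left out, while the eWAT to BAT difference of Cox4i1 passed in only 1 of the 8 such fits (without KO mouse 2, adjusted p = 0.0250) and otherwise had an adjusted p of 0.0595 to 0.137. The eWAT to BAT difference of Sdha was lost without WT mouse 2 (adjusted p = 0.0515) or WT mouse 4 (adjusted p = 0.0533). Between eWAT and liver Sdha was lost without WT mouse 2, WT mouse 4 or KO mouse 1, with adjusted p up to 0.0613, and Uqcr11 was kept only without KO mouse 2 (adjusted p = 0.0275). No member passed between iWAT and BAT (0% of all genes), eWAT and iWAT (0%) or BAT and liver (0.0893%). The Cox8b difference between iWAT and BAT was 2.35 (adjusted p = 0.196). At an unadjusted p under 0.05, 13 of 49 members had a higher change in iWAT than in BAT (4.74% of all genes) and 1 a lower one (4.84%). Likewise 1 was higher (4.39%) and 2 were lower (6.37%) in eWAT than in iWAT, and 2 were higher (4.76%) and 1 lower (4.65%) in BAT than in liver. For eWAT against BAT 11 were higher and 1 lower, and for eWAT against liver 8 were higher and 2 lower. The share of all genes at the unadjusted threshold was not computed for these 2 pairs.

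Neighbouring parts of the respiratory machinery were read from fixed lists. Of all genes in eWAT 4.57% were called higher and 10.7% lower, and 8.63% had every KO mouse above every WT mouse. At an unadjusted p under 0.05 in limma, 7.09% of all genes were higher in iWAT and 5.25% in BAT, and 1843 of 24646 were lower in liver. The lists that hold genes called lower in eWAT hold them about as often as all genes do. Of 35 measured complex I subunits 8 were called higher in eWAT and none in the other tissues, with 15 at an unadjusted p under 0.05 in iWAT and 10 in BAT, all higher, and 3 in liver, all lower. Of the RNAs encoded in mitochondrial DNA 9 were measured; in eWAT all 9 had every KO mouse above every WT mouse, and COX3 of complex IV (0.34, adjusted p = 0.0137) and CYTB of complex III (0.27, adjusted p = 0.0446) were called. Of 22 measured genes on a list of assembly factors and related proteins for complexes II to V, none was called higher in any tissue. In eWAT 2 of them fell: Atpif1, an inhibitor of ATP synthase rather than an assembly factor (-0.62, adjusted p = 0.0272), and Fastkd2, a mitochondrial RNA-binding protein (-0.44, adjusted p = 0.0453). Of 11 electron carriers and exchangers 3 rose in eWAT, Etfa (0.52) and Etfb (0.66), the electron transfer flavoprotein of fat oxidation, and Coq9 (0.47), needed for coenzyme Q synthesis, and 1 fell, the ADP/ATP exchanger Slc25a5 (-0.49). Of 12 regulators of mitochondrial biogenesis 2 rose in eWAT, the nuclear receptor Ppara (0.49, adjusted p = 0.0205) and the corepressor Nrip1 (0.68, adjusted p = 0.0136). Of 10 other mitochondrial markers, Hspd1 (0.40) and Phb (0.57) rose and Vdac2 (-0.47) fell in eWAT. The macrophage and adipocyte values given above for eWAT apply to each of these counts.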

How the data were processed

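Total RNA (100 ng per array, biotin label) was measured on Affymetrix Mouse Gene 2.1 ST arrays. The authors deposited log2 expression values, 1 table per tissue with 1 value per gene symbol; the normalization and summarisation software is not given in the sources used here. The tables hold no detection calls, so a low value may be background, and the 4 mice per group limit the precision. The authors had averaged several probe sets for 840 genes, among them 4 members, Atp5d, Atp5e, Cox7b and Uqcrb. Subunit genes have near-identical pseudogene copies, and whether probes read them was not examined. All 32 columns were matched to samples by name, and 0 value columns were left unmatched.

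KO and WT mice were compared within each tissue with limma 3.58.1 (R 4.3.3) across 24646 genes, two-sided, with Benjamini-Hochberg adjustment over all genes and a threshold of 0.05. Differences between tissues were fitted in the same way on the per-mouse difference of log2 values. Isoform differences were compared by two-sided exact permutation over 70 relabelings. The fit was tested on simulated data. Promoter sequences came from RefSeq (GRCm38.p6). Genes were named with values by a rule: the brown-type isoforms and their partners, Cox6a2 and Cox4i2, the smallest p and the largest change per tissue and complex, and every called member; other members are given by value where they complete a complex, chosen after their values were seen. The members and lists were chosen with earlier results of these data known. Alternatives were quantile normalization, equal array medians, array weights, a trended and robust prior, a filter on dim genes, the methods' t-test, the mouse number as a block, macrophage or muscle means as covariates, and leaving out each array; lymphocyte and muscle settings that leave out arrays or add the lymphocyte mean were chosen after seeing the data.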

Additional observations from a re-analysis of the deposited data

Results flagged for a closer look

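Among 132 groups of 4 arrays examined, for the named members and the means of the complexes, 5 held 1 array far from the other 3. Chance alone gives about 5% of groups, so the number flagged is no more than chance would give. Cox7b in liver was 4.87 in WT mouse 1, and 5.28 to 5.35 in the other WT mice. Cox7a2 in eWAT was 7.13 in WT mouse 4, and 7.39 to 7.43 in the other WT mice. Uqcr11 in eWAT was 5.42 in KO mouse 2, with the other KO mice all at 5.75. Cox6a2 in iWAT was 3.88 in KO mouse 1 and 3.60 to 3.64 in the other KO mice. Cox6a2 in BAT was 5.66 in KO mouse 2 and 2.44 to 2.71 in the other KO mice, and that array also had the highest skeletal muscle mean of the tissue, 7.17.

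In 6 cases the change of a member differed between tissues by limma on the per-mouse differences, each time with the larger change in eWAT. Against BAT these were Sdha (0.70, on the log2 scale) and Cox4i1 (0.56). Against liver they were Cox4i1 (0.67), Sdha (0.63), Atp5k (0.58) and Uqcr11 (0.41). Of all genes 6.93% differed between eWAT and BAT and 8.37% between eWAT and liver, in either direction. At this adjusted threshold the members did not differ more often than all genes. With 1 mouse left out, Cox4i1 against BAT and Uqcr11 against liver passed only without KO mouse 2. The changes in iWAT were not tested against liver.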

How the results depend on the processing

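The 8 calls of eWAT (1126 genes higher and 2632 lower in the whole table) became 17 with quantile normalization (3740 genes), 14 with array weights (5295 genes), and 5 with the mouse number as a block (3405 genes). They became 0 with the methods' t-test after adjustment (12 of 49 at its unadjusted threshold; 38 genes called after adjustment), 0 with the muscle mean as a covariate (14 genes called in the whole table) and 0 with the macrophage mean (1 gene). Leaving out 1 array gave 4 to 10: 5 without WT mouse 1, 4 without WT mouse 2, 5 without WT mouse 4, 4 without KO mouse 1 and 4 without KO mouse 4. The 0 calls of iWAT became 2 with the lymphocyte covariate, 1 without the lymphocyte-rich arrays, and 0 to 7 with 1 array left out (7 without KO mouse 2). The median change of the members with quantile normalization was 0.279 for eWAT, 0.433 for iWAT and 0.0960 for BAT. In BAT leaving out 1 array gave 0.0494 to 0.0842. With the macrophage covariate the median was 0.0039 for eWAT and 0.127 for iWAT, but that covariate moved with genotype in both depots. The 2 differences between eWAT and BAT became 4 with quantile normalization, 1 with a trended and robust prior and 0 to 3 with 1 array left out, and the 4 between eWAT and liver became 5 with quantile normalization and 2 to 4 with 1 array left out. With the arrays taken as independent each count became 3, and Uqcr11 between eWAT and liver was lost (limma adjusted p = 0.0569). The filter on dim genes moved the median of all genes to -0.082 in eWAT and -0.112 in iWAT. Liver and BAT had 0 calls under all alternatives run.

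A check of whether WT and KO mice of the same number form pairs within a tissue was not decisive. Deviations from the group means of same-numbered WT and KO arrays correlated at -0.38 to 0.67 over the tissues. In each tissue 2 WT arrays correlated best with the KO array of their own number. The check does not concern the tissues of 1 mouse, on which the differences between tissues rest. The block gave 5 calls in eWAT and 0 in the other tissues.

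Of the single-gene values, 28 changed sign, all for uncalled changes. Cox4i2 in liver became -0.0225 (quantile), -0.0130 (equal medians), -0.0929 (macrophage covariate) and -0.0259 to 0.0540 with 1 array left out, and Cox6a2 in liver -0.0656 to 0.0109. With the muscle covariate Cox7a2 in liver became -0.0137 and Cyc1 -0.000238. With the macrophage covariate Cox6a2 in eWAT became 0.227 and Cox7a2 -0.0555, and Cox7a1 in iWAT -0.418. With 1 array left out Cox7a1 was -0.184 to 0.0364 in eWAT and -0.0754 to 0.343 in iWAT. Cox6a2 in iWAT became 0.0525 (array weights), 0.160 (muscle), 0.105 (macrophage) and -0.194 to 0.216 with 1 array left out. Cox6a2 in BAT became 0.195 (muscle), 0.920 (macrophage), 0.313 (muscle-rich arrays left out) and -1.02 to 0.361 with 1 array left out. The cause of these shifts was not tested.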
